A study of Mus musculus with 2 samples.

Results

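Vcam1, Icam1, Icam2, Selp, Sele, Plvap and Ackr1 code for proteins of the blood vessel lining that hold passing leukocytes, bind chemokines or set how permeable the vessel is. The 7 genes were chosen by symbol from the 32285 genes of the count matrices, with earlier results of these data known, and all 7 were found there. The cells came from the inner ear cochlea of C57BL/6J mice aged 4 to 6 weeks. Drug-NIHL ears were pretreated with a drug, given at 90 mg/ml, and then exposed (the title of the study abbreviates it as VPA, and the route is not given). NIHL ears were the untreated ears on the other side of the same mice, so both groups had the same noise: 105 dB in the octave band of 8 to 16 kHz for 2 hours. Each group is 1 droplet library (10x Genomics 3′ kit) of tissue from 5 ears, dissected 2 days after the noise. The tissue is labelled sensory epithelium, but the libraries held mostly other cells: the cluster with hair cell markers had 154 Drug-NIHL and 106 NIHL cells. Since there is 1 library per group, no spread between ears can be measured. Every interval given is a 95% interval for counting error alone, no p-value can be given, and group, side of the head, ear pool and library cannot be told apart. No library without noise was analysed here.

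When a tissue is inflamed, leukocytes first roll along the wall of small veins on the selectins Selp and Sele, which bind sugars on their surface. They then stop on Icam1, Icam2 and Vcam1, which are bound by leukocyte integrins, and cross between or through the endothelial cells. Vcam1, Icam1 and Sele are textbook targets of the transcription factor NF-kB downstream of TNF and IL-1, whereas Icam2 is made by resting endothelium. Plvap forms the diaphragms of fenestrae and caveolae and is missing from capillaries that have a tight barrier. Ackr1 binds many inflammatory chemokines without signalling and marks venules. In the cochlea the capillaries of the stria vascularis form a blood-labyrinth barrier, and leukocytes are known to enter the spiral ligament and the modiolus after noise.

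In mouse build GRCm38 (GENCODE M21), Sele (chr1:164048234-164057677, plus strand) and Selp (chr1:164115264-164150026, plus strand) lie close together. Ackr1 lies further along that chromosome (chr1:173331886-173333750, minus strand), Vcam1 at chr3:116109949-116129688 (minus), Plvap at chr8:71497765-71511752 (minus), Icam1 at chr9:21015985-21028817 (plus) and Icam2 at chr11:106377656-106388075 (minus). The RefSeq promoter table (GRCm38.p6) held 4 of the 7 genes, and Vcam1, Icam2 and Plvap are named only. The windows of Icam1 and of both selectins are shown because these 3 genes are the inducible adhesion genes among the 4. The window of Ackr1 is not shown, since it lies within the annotated span of the neighbouring gene Cadm3. Each sequence is the 250 bases before the start annotated in RefSeq, 5′ to 3′ on the gene's own strand, and distances are counted from that start. For Icam1 the window ends at 21015939, so its RefSeq start lies upstream of the GENCODE start given above. The capitals mark matches on either strand to a relaxed NF-kB consensus, the AP-1 motif TGANTCA, the ETS motif AGGAAG and the TATA motif TATAAA.
Icam1 promoter (chr9:21015690-21015939, plus strand): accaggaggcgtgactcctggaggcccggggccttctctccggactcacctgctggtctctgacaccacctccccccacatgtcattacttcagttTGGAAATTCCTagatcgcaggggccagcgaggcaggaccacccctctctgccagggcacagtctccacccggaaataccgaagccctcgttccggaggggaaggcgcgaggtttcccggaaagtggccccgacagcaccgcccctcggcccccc
Selp promoter (chr1:164115014-164115263, plus strand): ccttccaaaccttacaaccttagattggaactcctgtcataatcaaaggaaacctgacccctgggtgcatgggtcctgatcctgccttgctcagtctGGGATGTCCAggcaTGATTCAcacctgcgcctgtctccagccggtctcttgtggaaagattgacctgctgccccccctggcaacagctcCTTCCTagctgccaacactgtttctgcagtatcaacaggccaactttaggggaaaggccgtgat
Sele promoter (chr1:164047984-164048233, plus strand): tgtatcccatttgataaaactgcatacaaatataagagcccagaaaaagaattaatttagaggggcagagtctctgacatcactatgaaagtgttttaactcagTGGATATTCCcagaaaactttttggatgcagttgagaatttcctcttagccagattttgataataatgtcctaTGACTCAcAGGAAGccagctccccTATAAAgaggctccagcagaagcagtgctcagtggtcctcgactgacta
No window matched the stricter NF-kB consensus with 3 leading G bases, which 7.25% of 32851 promoter windows of this length held. The relaxed form, with the first base free, was chosen after that search and was found in 22.9% of the windows. It matched Icam1 at 154 bases before the start (and 1 base further along on the other strand), Selp at 153 and Sele at 146. The AP-1 motif, in 6.75% of the windows, was found in Selp at 139 and Sele at 73 bases. The ETS motif, in 29.5%, was found in Selp at 64 and Sele at 65 bases, where it follows the AP-1 motif of Sele after 1 base. The TATA motif, in 12.4%, was found only in Sele among the 3, at 49 bases. A match is a description of the letters in these windows, not of a protein bound there.

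After filtering, 17536 Drug-NIHL cells with 30725156 UMIs (unique molecular identifiers, which count each captured transcript once) and 16618 NIHL cells with 33790872 UMIs were analysed. Their median depths were 1128.5 UMIs in Drug-NIHL and 1128 in NIHL. The doublet filter had taken 12.9% of Drug-NIHL and 4.62% of NIHL cells, and 111 barcode sequences occurred in both libraries. Cells were clustered without the 7 genes, and 1 cluster of 1540 Drug-NIHL and 1077 NIHL cells carried all 13 endothelial markers, at 2.69 to 136 times the level of other cells in Drug-NIHL and at 3.68 to 172 times in NIHL. It is called endothelial-like. It made up 8.78% of Drug-NIHL cells (8.37 to 9.21%) and 6.48% of NIHL cells (6.11 to 6.87%). Its median depth was 1106 UMIs in Drug-NIHL and 1512 in NIHL, and its mitochondrial share was 5.21% in Drug-NIHL and 3.37% in NIHL. Whether depth or RNA quality had a part in the results below was not tested beyond the thinned values given with them. Levels are in CPM, counts per 1e6 UMIs: the gene's share of all UMIs in the same cells. Because the kit reads transcript ends, CPM were set side by side between cell groups for each gene and not between genes.

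The endothelial-like cells divided into 11 sub-clusters, of which 3 could be named from markers. Sub-cluster 4, with 87 Drug-NIHL and 86 NIHL cells, is venous-like (by markers that include Vwf, Nr2f2, Il1r1, Slc38a5 and Lrg1). Sub-cluster 0, with 371 Drug-NIHL and 257 NIHL cells, is barrier capillary-like (Mfsd2a, Slc16a1, Tfrc, Car4, Spock2 and Slc22a8), and sub-cluster 8, with 55 Drug-NIHL and 42 NIHL cells, is arterial-like. Sub-cluster 5, with 63 Drug-NIHL and 75 NIHL cells, carried Gpihbp1, Fabp4, Rgcc, Kdr and Cd300lg, markers of fenestrated or peripheral capillaries, but 4 haemoglobin genes stood among its 10 leading genes, so it is called the Fabp4 Gpihbp1 sub-cluster. Haemoglobin took 4.40% of its UMIs in Drug-NIHL and 7.34% in NIHL, and 6 Drug-NIHL and 8 NIHL cells had more than 10%. Fabp4 was found in 0.909% of all Drug-NIHL and 1.39% of all NIHL endothelial-like cells. The sub-cluster made up 4.09% of these cells in Drug-NIHL and 6.96% in NIHL. Most of its cells thus had no Fabp4 UMI, and the name does not describe each cell. The other 7 sub-clusters stayed unnamed, and 4 of them carried 3 or more markers of Schwann cells, pericytes, strial intermediate cells or macrophages. Leaving those 4 out moved the Drug-NIHL over NIHL ratio of no gene to the other side of 1.5 or of its inverse, 0.67 (chosen after seeing the data).

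The genes with enough UMIs were high in different vessels. In both libraries Icam1 and Vcam1 were high in the venous-like cells, Vcam1 also in the arterial-like cells, and Plvap and Selp in the Fabp4 Gpihbp1 sub-cluster. The few Sele UMIs lay more in the venous-like cells in Drug-NIHL and more in the Fabp4 Gpihbp1 sub-cluster in NIHL. Icam2 was found in every named subset. The barrier capillary-like cells, the largest sub-cluster, had no Selp or Sele UMI in either library, which allows up to 7.71 CPM in Drug-NIHL and 8.17 CPM in NIHL, and had 0 Plvap UMIs in Drug-NIHL against 2 in NIHL. These levels describe clusters of cells from 1 library per group and are no test of one subset against another.

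**Figure D1:**
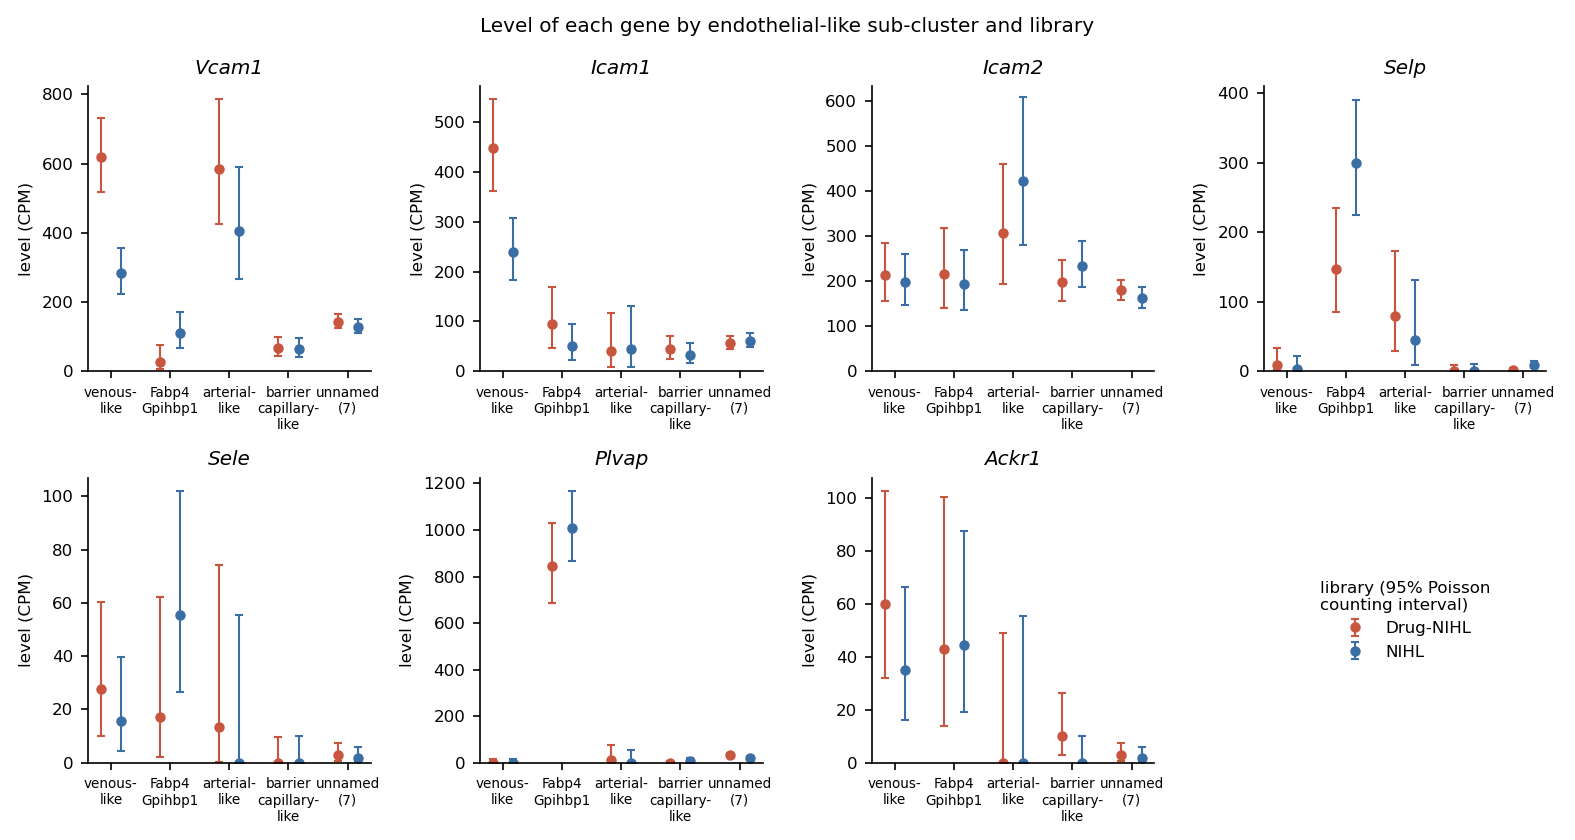
Level of each gene (vertical axis, CPM, from 0) in the venous-like, Fabp4 Gpihbp1, arterial-like, barrier capillary-like and 7 pooled unnamed sub-clusters, Drug-NIHL left and NIHL right, with 95% Poisson intervals. Icam1 is high in the venous-like cells, Plvap and Selp in the Fabp4 Gpihbp1 sub-cluster, and Vcam1 in venous-like and arterial-like cells, where the Drug-NIHL points are the higher ones.

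Vcam1, the integrin receptor that lymphocytes and monocytes use to stop on a vessel, had 407 UMIs in Drug-NIHL and 299 in NIHL endothelial-like cells. Its level was 185 CPM in Drug-NIHL and 144 CPM in NIHL, a ratio of 1.29 (1.11 to 1.5). The share of cells with Vcam1, thinned to 1000 UMIs, was about the same over the class. It was 10.7% in Drug-NIHL (8.74 to 13.0%) and 10.4% in NIHL (8.33 to 12.8%). Among the named subsets the ratio was highest in the venous-like cells. There Vcam1 had 134 UMIs (619 CPM, 518 to 733) in Drug-NIHL and 73 UMIs (283 CPM, 222 to 356) in NIHL, a ratio of 2.19 (1.63 to 2.95). It was found in 60.9% of 87 Drug-NIHL and 39.5% of 86 NIHL venous-like cells, whose median depths were 2488 UMIs in Drug-NIHL and 2871.5 in NIHL. With each cell thinned to 1000 UMIs, the shares were 35.0% of 80 Drug-NIHL cells (24.7 to 46.5%) and 13.6% of 81 NIHL cells (6.98 to 23.0%). So the higher level in the drug library came with more cells in which the transcript was found, at equal depth. In the Schwann-like class, which should lack the gene, the shares were 0.370% in Drug-NIHL and 0.485% in NIHL, at a median depth of 697 UMIs in Drug-NIHL and 771.5 in NIHL.

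In the arterial-like cells Vcam1 had 44 UMIs (585 CPM) in Drug-NIHL and 27 UMIs (406 CPM) in NIHL, a ratio of 1.44 (0.872 to 2.42). That interval holds 1, so a difference was not detectable at this depth. In the barrier capillary-like cells it had 26 UMIs (66.8 CPM) in Drug-NIHL and 24 (65.4 CPM) in NIHL. In the Fabp4 Gpihbp1 sub-cluster the order was the other way round, with 3 UMIs (25.8 CPM) in Drug-NIHL and 20 (111 CPM) in NIHL, a ratio of 0.233 (0.0443 to 0.785) on few counts. Within Drug-NIHL, the venous-like level was 4.49 times (3.62 to 5.54) that of the other endothelial-like cells and the arterial-like level 3.42 times (2.44 to 4.68). Within NIHL the venous-like level was 2.28 times (1.73 to 2.98) and the arterial-like level 3.0 times (1.94 to 4.47) that of the others. The arterial-like and venous-like levels of Vcam1 were within each other's intervals in Drug-NIHL and overlapped in NIHL.

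Icam1, the receptor for the integrins of neutrophils and monocytes, had 207 UMIs (94.2 CPM) in Drug-NIHL and 160 (77.0 CPM) in NIHL endothelial-like cells, a ratio of 1.22 (0.991 to 1.51), which turned to 0.822 at clustering resolution 2. It was the most venous of the adhesion receptors: 97 of the Drug-NIHL and 62 of the NIHL UMIs came from the venous-like cells. There it stood at 448 CPM (363 to 546) in Drug-NIHL and 240 CPM (184 to 308) in NIHL, a ratio of 1.86 (1.34 to 2.60). Icam1 was found in 54.0% of Drug-NIHL and 36% of NIHL venous-like cells, and after thinning in 33.8% of Drug-NIHL (23.5 to 45.2%) and 18.5% of NIHL cells (10.8 to 28.7%). In the Schwann-like class it was found in 0.222% of Drug-NIHL and 0.397% of NIHL cells. The venous-like ratio of Icam1 depended on the processing, and in 4 other settings it was below 1.5 with an interval that holds 1. It was 1.09 (0.731 to 1.62) with the marked doublets kept, 1.24 (0.881 to 1.75) in cells with at least 500 genes, 1.33 (0.934 to 1.89) at clustering resolution 0.5 and 1.38 (0.974 to 1.95) with sub-clusters at resolution 1. Outside the venous-like cells the level was lower, with 17 UMIs (43.7 CPM) in Drug-NIHL and 12 (32.7 CPM) in NIHL barrier capillary-like cells and 3 UMIs in arterial-like cells of either library. The Fabp4 Gpihbp1 sub-cluster had 11 UMIs (94.7 CPM) in Drug-NIHL and 9 (49.9 CPM) in NIHL. Unnamed sub-cluster 1 held 38 UMIs in either library (78.7 CPM in Drug-NIHL, 92.7 CPM in NIHL). Over the 7 unnamed sub-clusters together the Icam1 ratio was 0.920 (0.662 to 1.28), an interval that holds 1. The venous-like level was 8.06 times (6.07 to 10.7) that of the other endothelial-like cells in Drug-NIHL and 4.47 times (3.2 to 6.2) in NIHL.

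Icam2, the adhesion molecule of resting endothelium, had 422 UMIs (192 CPM) in Drug-NIHL and 397 (191 CPM) in NIHL, a ratio of 1.01 (0.875 to 1.16). It was the most evenly spread of the 7 genes. Its level was 212 CPM in Drug-NIHL and 198 CPM in NIHL venous-like cells, 198 CPM in Drug-NIHL and 234 CPM in NIHL barrier capillary-like cells, and 306 CPM in Drug-NIHL and 421 CPM in NIHL arterial-like cells. Of these subsets the arterial-like one was the highest in both libraries, at 1.63 times (1.02 to 2.47) the other endothelial-like cells in Drug-NIHL and 2.30 times (1.51 to 3.38) in NIHL. The share of endothelial-like cells with Icam2 was 22.8% in Drug-NIHL and 29.4% in NIHL, but 17.2% of Drug-NIHL and 17.3% of NIHL cells once thinned to 1000 UMIs. In the Schwann-like class it was 0.0741% in Drug-NIHL and 0.0441% in NIHL.

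Selp, P-selectin, which is stored in the granules of endothelial cells and platelets, was rare. It had 27 UMIs (12.3 CPM) in Drug-NIHL and 68 (32.7 CPM) in NIHL endothelial-like cells, a ratio of 0.376 (0.231 to 0.595). Of these, 17 Drug-NIHL and 54 NIHL UMIs lay in the Fabp4 Gpihbp1 sub-cluster, in 6 of 63 Drug-NIHL and 12 of 75 NIHL cells. The level there was 146 CPM (85.2 to 234) in Drug-NIHL and 299 CPM (225 to 391) in NIHL, a ratio of 0.489 (0.266 to 0.856). These intervals count each UMI on its own, although the UMIs lay in few cells. After thinning, 6% of 50 Drug-NIHL (1.25 to 16.5%) and 12.7% of 63 NIHL cells (5.65 to 23.5%) there had Selp. Over all thinned endothelial-like cells the shares were 0.583% in Drug-NIHL (0.19 to 1.36%) and 1.58% in NIHL (0.82 to 2.75%). In each comparison of shares the intervals overlap. The sub-cluster made up 4.09% of endothelial-like cells in Drug-NIHL and 6.96% in NIHL, but that order was not kept when each library was sub-clustered alone: it then had 80 of 1540 Drug-NIHL and 56 of 1077 NIHL cells, with a Selp ratio of 0.205 (0.0933 to 0.407). The cell richest in Selp held 18.5% of the Drug-NIHL and 14.7% of the NIHL UMIs. Cells with at least 2 lymphatic markers, 3 in Drug-NIHL and 8 in NIHL, held 3 Selp UMIs in Drug-NIHL and 7 in NIHL. Without them Selp had 24 UMIs in Drug-NIHL and 61 in NIHL. Venules are the textbook site of Selp, but the venous-like cells held 2 Selp UMIs in Drug-NIHL and 1 in NIHL, against 6 in Drug-NIHL and 3 in NIHL arterial-like cells.

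Sele, E-selectin, made on demand by cytokine-activated endothelium, was the rarest of the 7, with 13 UMIs (5.92 CPM) in Drug-NIHL and 16 (7.70 CPM) in NIHL endothelial-like cells. The ratio of 0.769 has an interval of 0.340 to 1.70, so these counts cannot show a difference of this size. The venous-like cells held 6 of these UMIs in Drug-NIHL and 4 in NIHL, and the Fabp4 Gpihbp1 sub-cluster held 2 in Drug-NIHL and 10 in NIHL. Sele was found in 0.779% of Drug-NIHL and 0.836% of NIHL endothelial-like cells, against 0 of 4050 Drug-NIHL Schwann-like cells, which allows a share of up to 0.0741%, and 0.0147% of NIHL ones.

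Plvap, the diaphragm protein of fenestrae, had 145 UMIs (66.0 CPM) in Drug-NIHL and 208 (100.1 CPM) in NIHL endothelial-like cells, a ratio of 0.659 (0.530 to 0.819). Most of it, 98 of the Drug-NIHL and 182 of the NIHL UMIs, lay in the Fabp4 Gpihbp1 sub-cluster. The unnamed sub-clusters 1 and 2 held 26 and 16 more in Drug-NIHL, and 11 and 10 in NIHL. In that sub-cluster it was found in 58.7% of Drug-NIHL and 62.7% of NIHL cells, at 844 CPM (685 to 1028) in Drug-NIHL and 1009 CPM (868 to 1167) in NIHL. The ratio within the sub-cluster was 0.836 (0.647 to 1.07), an interval that holds 1. When each sub-cluster was given its NIHL share of the UMIs, the ratio over all endothelial-like cells was 0.916. That weighting rests on the joint sub-clusters. With each library sub-clustered alone, the sub-cluster had 80 Drug-NIHL and 56 NIHL cells and the Plvap ratio within it was 0.668 (0.514 to 0.865). The level in the sub-cluster was 37.3 times (26.1 to 54.1) that of the other endothelial-like cells in Drug-NIHL and 73.7 times (48.7 to 116) in NIHL. In the venous-like cells Plvap had no UMI in either library, which allows up to 13.9 CPM in Drug-NIHL and 11.6 CPM in NIHL. The cells with at least 2 lymphatic markers held 4 Plvap UMIs in Drug-NIHL and 26 in NIHL. Over all endothelial-like cells the ratio was 0.946 when only cells with at least 1000 genes were used.

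Ackr1, the chemokine-binding receptor of venules, had 26 UMIs (11.8 CPM) in Drug-NIHL and 19 (9.14 CPM) in NIHL endothelial-like cells, a ratio of 1.29 (0.689 to 2.47) that ran between 0.597 and 1.92 over 15 other settings. Its venous-like level was 60.0 CPM (32.0 to 103) in Drug-NIHL, from 13 UMIs, and 34.9 CPM (16.0 to 66.2) in NIHL, from 9 UMIs, a ratio of 1.72 (0.680 to 4.56). That level was 9.14 times (3.90 to 21.4) the other endothelial-like cells in Drug-NIHL and 6.35 times (2.28 to 17.4) in NIHL. Over the whole endothelial-like class the share of cells with an Ackr1 UMI was 1.17% in Drug-NIHL and 1.21% in NIHL. The Schwann-like shares were near these, at 1.23% in Drug-NIHL and 1.03% in NIHL. That class is no measure of background here, because its Ackr1 UMIs could be reads of the overlapping gene Cadm3. Thinned to 1000 UMIs, endothelial-like cells had Ackr1 in 1.40% of Drug-NIHL (0.726 to 2.43%) and 0.659% of NIHL cells (0.214 to 1.53%). Thinned fibrocyte-like cells had it in 0 of 1379 Drug-NIHL and 0.0955% of 1047 NIHL cells. Thinned venous-like cells had it in 6.25% of Drug-NIHL (2.06 to 14.0%) and 1.23% of NIHL cells, the latter from 1 cell. The thinned Schwann-like shares were 2.82% in Drug-NIHL and 1.22% in NIHL.

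Set against all genes over the endothelial-like class as a whole, the 7 had a similar median ratio, but 2 of them were lower by the fold. All 7 had at least 20 UMIs in both libraries together; 0 were at least 1.5 times higher in Drug-NIHL, where 5.12% of 10273 genes were, and 2 (Selp and Plvap) were at 0.67 times or lower, where 5.24% of genes were. Their median log2 ratio was 0.01, beside -0.03 for all genes. In the venous-like cells 4 genes had enough UMIs, and 3 of them (Vcam1, Icam1 and Ackr1) were at least 1.5 times higher in Drug-NIHL, against 9.45% of 4012 genes, with a median log2 ratio of 0.83 beside -0.02. Of the 3, the interval of Ackr1 holds 1 and Icam1 was below 1.5 in the 4 settings named above, while Vcam1 stayed between 2.05 and 2.73 in 8 other settings. None was lower there, against 11.2% of genes. Icam1 was itself among the 10 leading genes of that sub-cluster, though it had no part in the clustering.

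In the Fabp4 Gpihbp1 sub-cluster 5 genes had enough UMIs. Of these, 1 (Icam1, 11 UMIs in Drug-NIHL and 9 in NIHL) was higher by the fold, against 11.5% of 2564 genes, and 2 (Selp and Vcam1) were lower, against 12.2%. In the barrier capillary-like cells 0 of the 3 measured genes were past the fold in either direction, where 8.63% of 5541 genes were higher and 9.8% lower. In the arterial-like cells 0 of 2 were, where 12.3% of 1244 genes were higher and 13% lower.

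**Figure D2:**
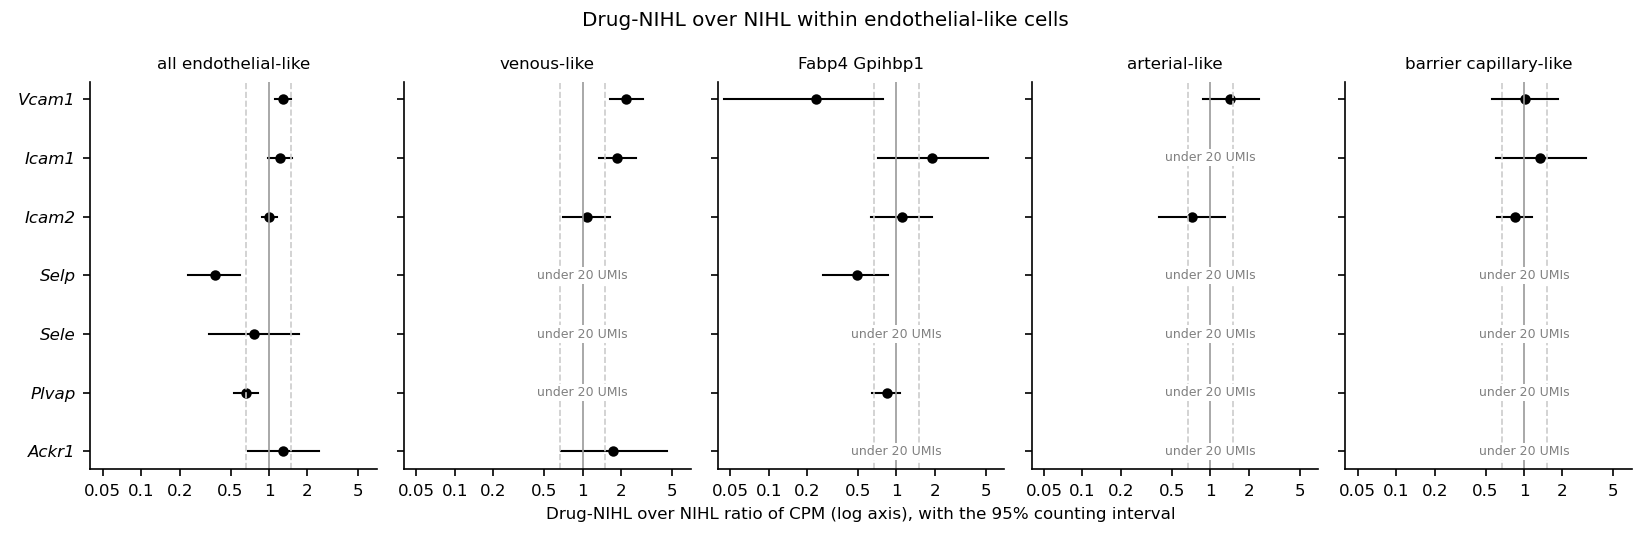
Drug-NIHL over NIHL ratio of CPM (horizontal log axis) with its 95% counting interval for each gene in all endothelial-like cells and in 4 sub-clusters; dashed lines mark 0.67 and 1.5. Vcam1 and Icam1 lie above 1.5 in the venous-like cells at 2.19 and 1.86, and Selp lies below 0.67 in all endothelial-like cells and in the Fabp4 Gpihbp1 sub-cluster.

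The transcripts were also found together in single cells, as far as sparse counts show. Of the endothelial-like cells with Vcam1, 26.5% in Drug-NIHL and 26.3% in NIHL also had Icam1. Of those with Sele, 66.7% of 12 in Drug-NIHL and 77.8% of 9 in NIHL had Icam1, and of those with Ackr1, 61.1% of 18 in Drug-NIHL and 61.5% of 13 in NIHL did. Of the Selp-positive cells, 15 in Drug-NIHL and 17 in NIHL, 33.3% in Drug-NIHL and 64.7% in NIHL had Plvap, and 46.7% in Drug-NIHL and 52.9% in NIHL had Vcam1. Cells that are deeper hold more of every gene, so these shares are a description.

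Outside the endothelium the 7 genes divided into 2 kinds. Icam2, Selp and Sele came mostly from endothelial-like cells, which held 87.4% of Icam2 UMIs in Drug-NIHL and 87.1% in NIHL, 84.4% of Selp UMIs in Drug-NIHL and 82.9% in NIHL, and all 13 Sele UMIs in Drug-NIHL and 84.2% of 19 in NIHL. For the other 4 most transcripts or a large part came from elsewhere: endothelial-like cells held 31.2% of Vcam1 UMIs in Drug-NIHL and 23.3% in NIHL, 20% of Icam1 in Drug-NIHL and 14.9% in NIHL, 39.5% of Plvap in Drug-NIHL and 55.5% in NIHL, and 7.81% of Ackr1 in Drug-NIHL and 5.43% in NIHL. These shares depend on how the class is drawn: at clustering resolution 2, where it had 873 Drug-NIHL and 495 NIHL cells, it held 32.9% of Icam2 UMIs in Drug-NIHL and 23% in NIHL, and 9.59% of Vcam1 UMIs in Drug-NIHL and 5.29% in NIHL. Over all cells the level of Vcam1 was 42.4 CPM in Drug-NIHL and 38.0 CPM in NIHL.

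**Figure D3:**
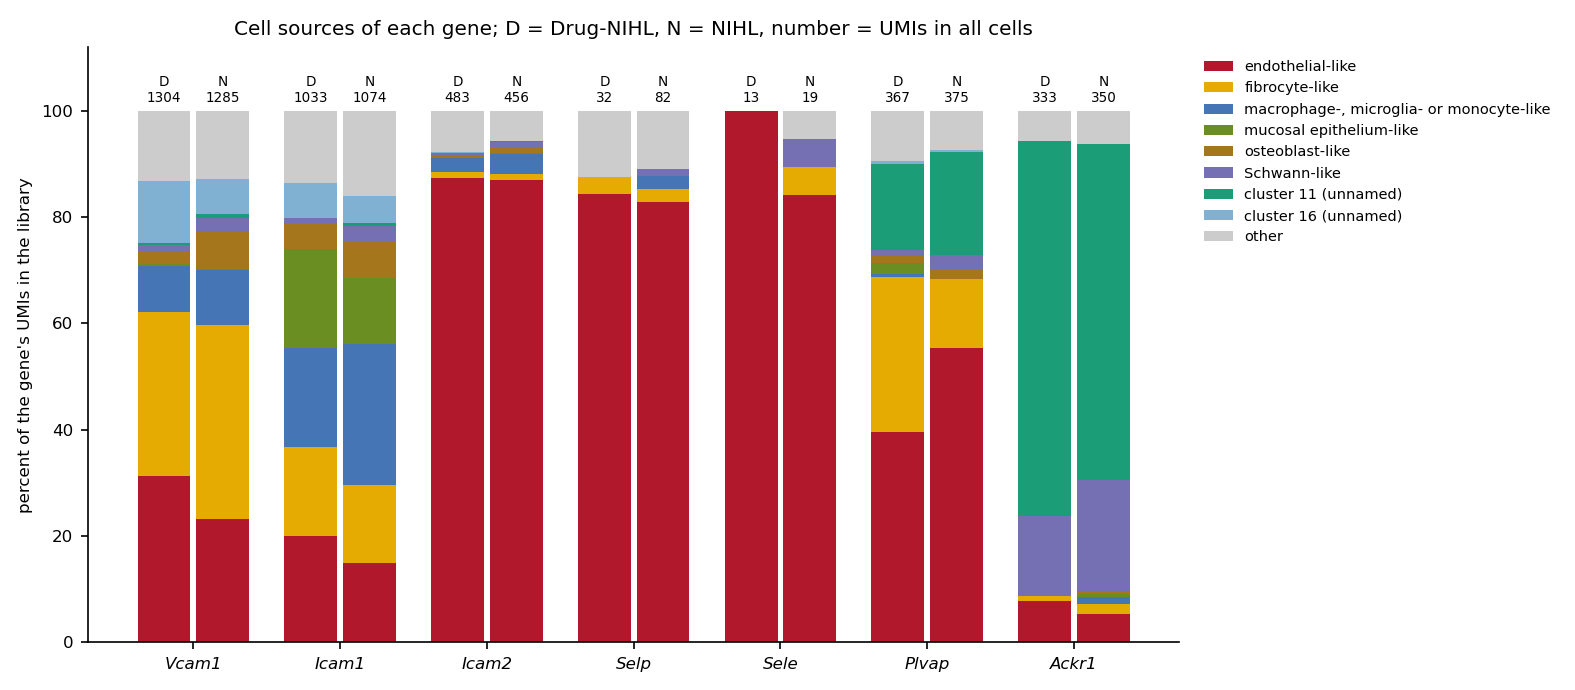
Share of each gene's UMIs (vertical axis, percent of the library's UMIs of that gene) by cell source, Drug-NIHL (D) left and NIHL (N) right, with the UMIs in all cells above each bar. Icam2, Selp and Sele come mostly from endothelial-like cells, Vcam1 also from fibrocyte-like cells, Icam1 from several sources, and Ackr1 mostly from the unnamed cluster 11.

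The other large source of Vcam1 was the fibrocyte-like class, the connective tissue cells of the lateral wall. They held 403 Vcam1 UMIs (112 CPM) in Drug-NIHL and 469 (171 CPM) in NIHL, against 407 in Drug-NIHL and 299 in NIHL endothelial-like cells, so in NIHL they held more than the endothelium. Within that class, cluster 3 (led by Fst, Dpep1, Inmt and Cemip) stood highest, with 283 UMIs (239 CPM, 19.8% of cells) in Drug-NIHL and 382 (260 CPM, 25.0% of cells) in NIHL. The cluster shares differed between the libraries: fibrocyte cluster 12 had 732 Drug-NIHL and 146 NIHL cells, so the class level is not a level of the same cells. An unnamed cluster with fibroblast markers and solute carriers (cluster 16, led by Slc6a12 and Slc6a13) held 152 Vcam1 UMIs (193 CPM) in Drug-NIHL and 84 (135 CPM) in NIHL. Macrophage-like cells held 96 UMIs in Drug-NIHL and 91 in NIHL.

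Among the cell classes Icam1 was highest in the microglia-like cells, with 69 UMIs (399 CPM, 43.1% of 102 cells) in Drug-NIHL and 112 (450 CPM, 67.3% of 101 cells) in NIHL. The venous-like Icam1 level in Drug-NIHL, 448 CPM, was close to these. The mucosal epithelium-like cells followed, with 192 UMIs (158 CPM) in Drug-NIHL and 134 (156 CPM) in NIHL. Such cells line the middle ear, which borders the cochlea. Macrophage-like cells had 107 Icam1 UMIs (85.2 CPM) in Drug-NIHL and 156 (122 CPM) in NIHL, a ratio of 0.696, on the other side of 1 from the venous-like cells.

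Much of the Plvap outside the endothelium in Drug-NIHL was in fibrocyte cluster 12 (led by Slc4a11, Otos and Ucma), with 92 UMIs (66.9 CPM) in Drug-NIHL and 10 (35.3 CPM) in NIHL. That ratio of 1.90 has an interval that holds 1 (0.986 to 4.09), and the cluster had 732 Drug-NIHL and 146 NIHL cells. In fibrocyte cluster 10 the order was the other way round, with 10 UMIs (9.61 CPM) in Drug-NIHL and 29 (29.4 CPM) in NIHL, a ratio of 0.327 (0.142 to 0.690). The unnamed cluster 11, whose cells are deep (a median of 9845 UMIs in Drug-NIHL and 12680 in NIHL), held 59 Plvap UMIs (13.6 CPM) in Drug-NIHL and 73 (13.2 CPM) in NIHL.

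Most Ackr1 UMIs, 70.6% in Drug-NIHL and 63.1% in NIHL, came from cluster 11, which carries neuronal markers (Snap25, Tubb3 and Nefl among them) but is unnamed here. It had 235 Ackr1 UMIs (54.0 CPM) in Drug-NIHL and 221 (40.0 CPM) in NIHL. Ackr1 overlaps Cadm3, a cell adhesion gene of neurons and glia, on the same strand (Cadm3 at chr1:173333258-173367695, minus), so reads of one could be counted for the other. Cadm3 had 564 UMIs (130 CPM) in Drug-NIHL and 678 (123 CPM) in NIHL cells of cluster 11. In Schwann-like cluster 1 it had 181 UMIs (227 CPM) in Drug-NIHL and 355 (229 CPM) in NIHL, beside 29 Ackr1 UMIs in either library. Ackr1 values outside the endothelium are therefore uncertain. Selp, Vcam1, Plvap and Icam1 overlap annotated genes on the opposite strand, and no source used here states whether the counting used the strand.

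The genes whose level over cell classes (17 with 100 or more cells per library) was most like a member's were found by Pearson correlation of log2(CPM + 1), taking the lower of both libraries. For Icam2 these were Adgrl4 (0.867), the arterial transcription factor gene Sox17 (0.830) and the endothelial junction gene Pecam1 (0.811). For Selp they were Sox7 (0.821), Mmrn1 (0.80), a gene of lymphatic endothelium and platelets, and Msmp (0.796). Plvap was nearest to Tmem44 (0.822), Bvht (0.777) and Msmp (0.768). Vcam1 was nearest to the lipid transfer protein gene Pltp (0.844), Gbp3 (0.790) and Ifih1 (0.743), of which the last 2 are interferon-induced genes. Icam1 was nearest to Rnase4 (0.888), Tpp2 (0.832) and Golm1 (0.829). Classes of one library share its free RNA and depth, so these are descriptions over 17 points.

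Most other genes of the same steps had ratios near 1 in the endothelial-like cells. Of 20 genes of the TNF, IL-1 and NF-kB pathway 15 were measured; 1 was higher by the fold in Drug-NIHL and 2 were lower, with a median log2 ratio of -0.03, beside -0.03 for all genes. The one higher was Birc3, an inhibitor of apoptosis induced by NF-kB, with 41 UMIs in Drug-NIHL and 22 in NIHL (ratio 1.76, 1.03 to 3.11). The lower ones were the IL-1 receptor gene Il1r1, with 51 UMIs in Drug-NIHL and 77 in NIHL (0.627, 0.431 to 0.904), and Tnfaip2, with 16 in Drug-NIHL and 26 in NIHL (0.582, 0.292 to 1.13). Nfkbia, which codes for the NF-kB inhibitor and is itself an NF-kB target, had 840 CPM in Drug-NIHL and 869 CPM in NIHL, a ratio of 0.968 (0.906 to 1.03). In the venous-like cells 8 of the 20 were measured and 0 were past the fold, with a median of 0.02, and Nfkbia had a ratio of 1.04 (0.901 to 1.20).

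Of 14 junction and barrier genes 13 were measured in endothelial-like cells, and 0 were past the fold (median log2 ratio -0.07). Cldn5, the main claudin of barrier endothelium, had 4328 CPM in Drug-NIHL and 5003 CPM in NIHL (0.865, 0.841 to 0.890). Cdh5, the cadherin of endothelial junctions, had 639 CPM in Drug-NIHL and 628 CPM in NIHL (1.02, 0.943 to 1.10). In the venous-like cells, of 13 measured, Sox18 was higher by the fold with 18 UMIs in Drug-NIHL and 12 in NIHL. Mfsd2a, a lipid transporter of barrier endothelium and a naming marker of the barrier capillary-like cells, was among those lower, with 11 UMIs in Drug-NIHL and 23 in NIHL. The intervals of both hold 1. Of 15 genes of caveolae, fenestrae and permeability factors 14 were measured, 0 were higher and 2 were lower (median -0.20). These were Esm1, a secreted proteoglycan of VEGF-stimulated endothelium, with 4 UMIs in Drug-NIHL and 25 in NIHL (0.151, 0.0383 to 0.438), and Vegfa, the permeability factor itself, with 9 in Drug-NIHL and 13 in NIHL. Esm1 was also on the marker list of fenestrated or peripheral capillaries.

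Of 14 other endothelial adhesion and transmigration genes 12 were measured, and 1 was lower: the junction molecule gene Jam3, with 56 UMIs in Drug-NIHL and 88 in NIHL (0.602, 0.423 to 0.851), for a list median of -0.10. Vwf, the clotting and platelet-binding factor of large and venous vessels, had a ratio of 1.0 over all endothelial-like cells. In the venous-like cells it had 317 UMIs (1464 CPM) in Drug-NIHL and 266 (1031 CPM) in NIHL, a ratio of 1.42 (1.20 to 1.68). Vwf was itself a naming marker of the venous-like cells. Whether the make-up of that sub-cluster differed between the libraries was not tested. Of 14 leukocyte integrin and selectin ligand genes 5 were measured in endothelial-like cells, with 0 past the fold and a median of -0.04. Cd34, a sugar-bearing ligand of L-selectin, had 528 CPM in Drug-NIHL and 557 CPM in NIHL. All 9 flow-responsive transcription factor genes were measured over all endothelial-like cells, with 0 past the fold (median 0.06). In the arterial-like cells 4 of 8 measured were lower by the fold (median -0.60), against 13% of genes there: Klf4 (0.456, 0.331 to 0.623), Egr1 (0.541), Atf3 (0.544) and Junb (0.643). Elsewhere Klf4 lay above 1 but short of the fold. Its ratio was 1.13 (1.05 to 1.20) over all endothelial-like cells, 1.45 (1.16 to 1.81) in venous-like and 1.40 (1.16 to 1.70) in barrier capillary-like cells. Klf2, which laminar flow induces and which is known to hold down Vcam1, had 2590 CPM in Drug-NIHL and 2337 CPM in NIHL (1.11, 1.07 to 1.15), and in venous-like cells 1939 CPM in Drug-NIHL and 1842 CPM in NIHL (1.05, 0.921 to 1.20).

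Chemokines that Ackr1 binds stood apart by their counts but not by their cells. Of 8 genes 3 were measured, with a median log2 ratio of 1.80 that turned to -0.27 when endothelial cells were taken as those with at least 2 core marker genes. By the fold 2 were higher in Drug-NIHL: Ccl5, with 53 UMIs in Drug-NIHL and 6 in NIHL, and Cxcl2, with 75 in Drug-NIHL and 20 in NIHL (3.55, 2.14 to 6.14). Of the Ccl5 UMIs, 1 cell held 45.3% in Drug-NIHL and 50.0% in NIHL. Cxcl2, which draws neutrophils, was found in 2.21% of Drug-NIHL and 1.58% of NIHL endothelial-like cells. That is below its share in the other cells, 5.46% in Drug-NIHL and 3.85% in NIHL. The other cells include macrophage-like cluster 13, of which Cxcl2 was a leading gene, so they are no measure of background. Whether the Cxcl2 counts of the class are free RNA was not tested. Cxcl1, a related neutrophil chemokine, had 183 UMIs in Drug-NIHL and 155 in NIHL over all endothelial-like cells (1.12, 0.897 to 1.39). In the venous-like cells Cxcl1 had 55 UMIs (254 CPM) in Drug-NIHL and 25 (96.9 CPM) in NIHL, a ratio of 2.62 (1.61 to 4.39), and Cxcl2 had 19 in Drug-NIHL and 9 in NIHL (2.51, 1.08 to 6.31).

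The leukocytes in the same libraries held the partners of these receptors. Itga4, the integrin chain that binds Vcam1, had 147 CPM in Drug-NIHL and 112 CPM in NIHL monocyte or dendritic cell-like cells. Itgb2, the shared chain of the integrins that bind Icam1, had 227 CPM in Drug-NIHL and 218 CPM in NIHL neutrophil-like cells. Selplg, the ligand of Selp, had 676 CPM in Drug-NIHL and 840 CPM in NIHL microglia-like cells. Of the cytokines that induce these receptors, Tnf had 244 CPM in Drug-NIHL and 203 CPM in NIHL macrophage-like cells, and Il1b had 1273 CPM in Drug-NIHL and 1219 CPM in NIHL.

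Among all endothelial-like genes, those furthest apart between the libraries included genes known from other cell types. They were ranked by how far the interval bound nearest to 1 lay from it, not by the ratio, among genes that reached 50 UMIs in 1 library. Slc1a2 and Aldoc of astrocytes, Spp1, Ccl5 and Cxcl2 came first above 1, at ratios of 6.62, 2.97, 2.44, 8.36 and 3.55 in that order. Of these, all 5 were found in a smaller share of Drug-NIHL endothelial-like cells than of other Drug-NIHL cells (Slc1a2 in 5.52% against 7.78%). Their part in the results on the 7 genes was not tested. The first 5 below 1 were Ttr of the choroid plexus (0.0660), Fabp4 (0.214), Ccl21a (0.251) and Mmrn1 (0.205) of lymphatic endothelium, and S100a9 of neutrophils (0.398). Single cells held much of some of these: 1 cell held 55.4% of the S100a9 UMIs in Drug-NIHL and 92.6% in NIHL, 91.8% of the Ccl21a UMIs in Drug-NIHL and 41.9% in NIHL, and 53.8% of the Mmrn1 UMIs in Drug-NIHL and 45% in NIHL. Fabp4, a fatty acid binding protein of peripheral capillaries, had 54 UMIs in Drug-NIHL and 239 in NIHL, in the same direction as Selp and Plvap, which share its sub-cluster, and 1 cell held 46.3% of them in Drug-NIHL and 31.0% in NIHL.

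The sub-clusters themselves depended on the processing. The venous-like sub-cluster was not formed at clustering resolution 2, with a mitochondrial limit of 10%, or when NIHL cells were sub-clustered alone. Where it was formed, in 8 other settings, the Drug-NIHL over NIHL ratio of Vcam1 ran between 2.05 and 2.73 and that of Icam1 between 1.09 and 1.97. The Selp ratio in the Fabp4 Gpihbp1 sub-cluster ran between 0.205 and 0.494 over 10 other settings. Over all endothelial-like cells, in 15 other settings, the Selp ratio ran between 0.20 and 0.524 and that of Plvap between 0.521 and 0.946.

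**Figure D4:**
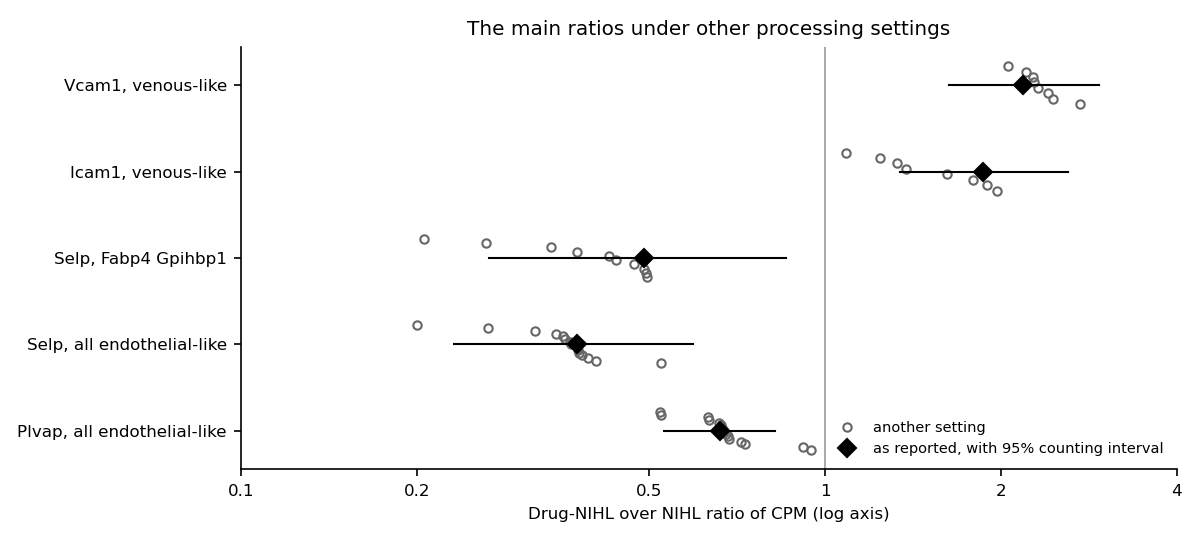
Drug-NIHL over NIHL ratio of CPM (horizontal log axis) for 5 results, as reported (diamonds, with the 95% counting interval) and under each other setting that could be run (open circles). Vcam1 in venous-like cells stays between 2.05 and 2.73, Icam1 there reaches down to 1.09, and Plvap over all endothelial-like cells reaches up to 0.946.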

How the data were processed

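Gene expression was measured by single-cell RNA sequencing in 1 library per group. The values the authors deposited are UMI counts, whole and not normalized, for each barcode and gene, from Cell Ranger 5.0.1 per the file headers. The submitters' processing notes also name STAR, Seurat 3.2.2, GRCm38 and mm10 without saying what each was used for. The filter behind the 21773 Drug-NIHL and 18545 NIHL barcodes and the annotation release are not given in the sources used here, and roughly 20000 recovered cells are stated per the labels' protocols.

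Barcodes with at least 300 genes, 500 UMIs and at most 20% mitochondrial UMIs numbered 20133 in Drug-NIHL and 17423 in NIHL. Scrublet in scanpy 1.11.5 (expected rate 0.08) marked 2597 Drug-NIHL and 805 NIHL cells, which were removed. Cells of the 2 libraries were clustered jointly, with no batch correction, on 3000 variable genes, 30 principal components, 15 neighbours and Leiden resolution 1, and the endothelial-like cells again on 2000 genes, 20 components and resolution 0.5. The 7 genes were left out of both. A name needed at least 3 markers at 2 times the level of other cells (1.5 times among sub-clusters) in at least 10% of cells. It also needed at least 1 marker of its type among the 10 leading genes, and no other type with more markers there. UMIs were summed per class and library. Ratios have exact conditional binomial 95% intervals, CPM exact Poisson and shares exact binomial (Clopper-Pearson) intervals; log2 ratios add 0.5 UMI to each sum. Limits for sums of 0 use 3 counts per library. All intervals and limits cover counting error only. Genes needed 20 UMIs in both sums together, and a gene was called at 1.5 or above or at 0.67 or below; with 1 library per group no test was run. The steps were tested on simulated counts. edgeR 4.0.16 gave TMM factors as an alternative.

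The members, gene lists and markers were chosen with earlier results of these data known. Besides the 7 genes, the text names by rule the 3 genes most like each gene with at least 50 UMIs, the 5 endothelial genes furthest from a ratio of 1 in each direction, and of each list the genes past the fold and the highest; Cdh5, Klf2, Vwf over all endothelial-like cells, and the leukocyte genes were named after their values were seen. GENCODE M21 held 32158 of the 32285 gene identifiers and gave coordinates, and RefSeq gave promoters. Some genes that these rules would name are not reported here.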

Additional observations from a re-analysis of the deposited data

Results flagged for a closer look

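For Vcam1 and Icam1, the Drug-NIHL over NIHL ratio lay on opposite sides of 1 in different cell groups, with each counting interval clear of 1; with 1 library per group the differences between cell groups were not tested. Vcam1 was higher in Drug-NIHL in the venous-like cells, at a ratio of 2.19 (134 UMIs in Drug-NIHL, 73 in NIHL), and in the unnamed cluster 16 with fibroblast markers, at 1.43 (1.08 to 1.88). It was lower in Drug-NIHL in the Fabp4 Gpihbp1 sub-cluster (0.233, with 3 UMIs in Drug-NIHL and 20 in NIHL), in the monocyte or dendritic cell-like class (0.189, with 8 UMIs in Drug-NIHL and 38 in NIHL), in the unnamed cluster 21 led by Fxyd2 and Ttr (0.422, with 18 in Drug-NIHL and 74 in NIHL) and in fibrocyte cluster 12 (0.397, with 54 in Drug-NIHL and 28 in NIHL, from 732 Drug-NIHL and 146 NIHL cells). Other groups also had intervals clear of 1. Vcam1 was lower in the whole fibrocyte-like class (0.654, 0.571 to 0.749). It was higher, on few UMIs, in the microglia-like class (6.47, with 9 in Drug-NIHL and 2 in NIHL). The same held for the erythroid-like class (4.54, with 16 in Drug-NIHL and 3 in NIHL) and unnamed cluster 23 (3.54, with 15 in Drug-NIHL and 4 in NIHL).

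Icam1 was higher in Drug-NIHL in the venous-like cells, at 1.86, and in cluster 21, at 2.21 (28 UMIs in Drug-NIHL, 22 in NIHL), and lower in the macrophage-like class, at 0.696 (107 UMIs in Drug-NIHL, 156 in NIHL). The cluster shares of the macrophage-like class differed between the libraries. Icam1 was also lower in the B cell-like class (0.112, with 2 UMIs in Drug-NIHL and 12 in NIHL). In cluster 21 the ratios of the adhesion receptors Vcam1 and Icam1 were thus on opposite sides of 1. Its cells had a median depth of 2445 UMIs in Drug-NIHL and 4097 in NIHL.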

How the results depend on the processing

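No paired analysis was possible because each group is 1 pooled library. The ratios past the fold that were recomputed (Selp and Plvap over the class, venous-like Vcam1 and Icam1, Fabp4 Gpihbp1 Selp) kept their side of 1; the venous-like Ackr1 and Fabp4 Gpihbp1 Vcam1 and Icam1 ratios were not recomputed, and the chemokine median changed side. Of the values recomputed for the main results, 392 stayed within their counting interval or 1.5 times and 50 moved further. Below, a fold is the level in a sub-cluster over that of the other endothelial-like cells of the same library. With cells of at least 500 genes the venous-like Icam1 fold in NIHL was 7.17, the Fabp4 Gpihbp1 Plvap fold in NIHL 119 and the venous-like Icam1 ratio 1.24. With cells of at least 1000 genes the endothelial ratios were 1.76 (Vcam1), 1.52 (Icam1) and 0.946 (Plvap), the list medians 0.015 (other adhesion genes) and 0.15 (flow-responsive factors), the venous-like Vcam1 fold 2.27 in Drug-NIHL and 1.21 in NIHL, the venous-like Icam1 fold 4.15 in Drug-NIHL and 3.02 in NIHL and the arterial-like Vcam1 fold 1.78 in Drug-NIHL. With doublets kept the venous-like Vcam1 fold was 7.22 in Drug-NIHL and 3.46 in NIHL, the Icam1 fold 10.4 in NIHL, the Ackr1 fold 45.5 in Drug-NIHL, the Plvap fold 31.7 in NIHL, the venous-like Icam1 ratio 1.09 and the Fabp4 Gpihbp1 Selp ratio 0.262. At clustering resolution 0.5 the Icam1 fold was 7.21 in NIHL, the Plvap fold 54.6 in Drug-NIHL and the venous-like Icam1 ratio 1.33. At resolution 2 the endothelial ratios were 0.822 (Icam1), 0.521 (Plvap) and 0.597 (Ackr1), the medians 0.17 (junction genes) and -0.23 (NF-kB pathway), the Plvap fold 38.7 in NIHL and the arterial-like Icam2 fold 1.5 in NIHL. With the 7 genes among those clustered the venous-like Vcam1 fold was 6.14 in Drug-NIHL, and with a 10% mitochondrial limit the arterial-like Vcam1 fold was 1.79 in Drug-NIHL. With endothelial cells taken by at least 2 core genes the medians were 0.39 (integrins and selectin ligands), 0.067 (other adhesion genes) and -0.27 (chemokines). With sub-clusters at resolution 1 the Icam1 fold was 6.61 in NIHL and the arterial-like Vcam1 fold 1.56 in Drug-NIHL and 1.92 in NIHL. With each library sub-clustered alone the Drug-NIHL folds were 3.57 (Vcam1, venous-like), 5.98 (Icam1), 10.7 (Selp) and 2.33 (Vcam1, arterial-like), and the Fabp4 Gpihbp1 Selp ratio was 0.205. Weighting sub-clusters as in NIHL gave 0.916 for Plvap, and thinning gave 0.20 for Selp and 0.524 for Plvap. Of genes with at least 1 UMI, 3067 were higher and 2515 lower past the fold, and of those with at least 100 UMIs 49 and 59, against 526 and 538; a looser or stricter filter tests more or fewer genes. Other causes were not tested. Leaving out shared barcodes or the richest cell, TMM factors and equal weight per cell moved none of the ratios past these bounds.

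Depth limits Selp, Sele and Ackr1, with 13 to 68 endothelial UMIs per library, and the arterial-like cells. The venous-like sub-cluster rests on 87 Drug-NIHL and 86 NIHL cells.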
